A study of Mus musculus with 3 samples.

Results

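The mast cells of the mouse aorta were studied in 3 single-cell RNA libraries of sorted CD45+ cells. A barcode was kept when it had at least 200 detected genes and at most 10% mitochondrial UMIs (unique molecular identifiers, each standing for 1 captured RNA molecule). A kept barcode was taken as a mast cell when it held at least 2 UMIs of Cpa3, at least 2 UMIs of Mcpt4, Cma1, Tpsb2 and Kit together, and none of Csf1r, Cd79a or Cd3e, which mark macrophages, B cells and T cells. This rule found 54 mast cells among 20903 kept barcodes, 25 in the control library, 10 in the library labelled WD and 19 in the library labelled HHcy. The cells were thus chosen by measured counts of the 8 genes of the rule, whose levels below are a description with no test.

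All 3 libraries came from ApoE-/- mice on the C57BL/6J background, the controls included. For 4 weeks the HHcy mice drank water that held homocysteine (Hcy, 1.8 g/L), and the WD mice ate a western diet for 4 weeks. Aortas were digested with their adventitia, and live nucleated CD45+ cells were sorted and loaded on a droplet kit that reads the 3′ end of polyadenylated RNA. There was 1 library per group, and the labels used here do not give the number of animals behind each, so no difference between groups has a replicate check and no test was made. Intervals cover counting error only and say nothing of the spread between mice.

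The disrupted gene was read first as a check of the labels. Over all barcodes, Apoe took 16.3 CPM (counts per 1000000 UMIs; 1090 UMIs) in the control library and 19.3 CPM (1801 UMIs) in the WD library, but 374 CPM (39368 UMIs) in the library labelled HHcy. A 3′ count does not show whether a transcript is intact, but the level in the third library went against a label shared by all 3. For this reason its label is given as a label in the text below, and each of its values carries this limit. Kept barcodes numbered 6038 in control, 6710 in WD and 8155 in the library labelled HHcy, with 16, 14 and 18 barcode sequences shared between pairs of libraries, none of them a mast cell.

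Mast cells are long-lived tissue-resident granulocytes that depend on signals through the receptor tyrosine kinase Kit and on the transcription factors Gata2 and Mitf. Their granules store serine proteases (chymases and tryptases), carboxypeptidase A3, histamine and serotonin, packed on serglycin proteoglycan, and are released when antigen crosslinks IgE on the high-affinity receptor or when a basic peptide engages a Mas-related receptor. Connective tissue mast cells, the kind found in the adventitia around vessels, carry all of these granule proteases, while the mucosal kind carries Mcpt1 and Mcpt2.

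The label of mast cells was checked on 12 mast cell genes that the rule did not use: Hdc, Fcer1a, Ms4a2, Gata2, Mrgprb1, Mrgprb2, Slc18a2, Il1rl1, Tpsab1, Hpgds, Mitf and Rab27b. A median of 10 of the 12 was detected per cell, with a minimum of 4. The mucosal proteases Mcpt1, Mcpt2 and Mcpt9 were at 0 in all 54 cells. Since 274022 UMIs were counted in them in all, a count of 0 allows up to 10.9 CPM. Of 7 eosinophil genes, Prg2, Ear1, Siglecf and the receptor gene Ccr3, which basophils share, were also at 0. A count of 0 of 54 cells allows a share of up to 5.56% of cells with a UMI. The rest of the 7 were detected at low counts: Ear2 and Il5ra had 5 UMIs each in 5 cells, and Epx had 1 UMI.

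For 1 of the 54 cells the data went against the name. A WD barcode with 24985 UMIs, the most of any member, held 100 UMIs of Mcpt8, the protease that defines basophils, and 101 of Prss34, another basophil protease. It had 63 UMIs of Cpa3 and 2 of Kit, which met the rule, but none of Mcpt4, Cma1, Tpsb2, Tpsab1, Mrgprb1 or Mrgprb2. It also held 118 UMIs of Mpo, 11 of Prtn3 and 19 of Myb, genes of myeloid progenitors, together with 24 of Fcer1a, 20 of Ms4a2 and 24 of Gata2. It is called the cell with Mcpt8 below, and results that rest on it are given with and without it. Outside it, Mcpt8 had 1 UMI in the mast cells, and each of the other 53 cells had UMIs of all 5 genes of the rule. Among barcodes that were not members, one in control held 59 UMIs of Mcpt8 and one in the library labelled HHcy 225. Of 10943 and 8570 UMIs, these had 25 and 17 of Gata2, and 13 and 15 of Hdc. They also had 4 and 13 UMIs of Fcer1a and 4 and 8 of Ms4a2, so these genes were not confined to the members.

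The counts on either side of the threshold were as follows. The lowest Cpa3 count of a member was 13 in control, 63 in WD and 40 in the library labelled HHcy, whereas among barcodes that held Cpa3 but failed a positive condition, 79 of 80, 57 of 60 and 61 of 66 had a single UMI. The lowest sum of the 4 other positive genes was 103 in control and 181 in the library labelled HHcy, but 2 in WD, where the cell with Mcpt8 sat exactly at the threshold. A further 28 barcodes met the positive conditions and failed only because they held Csf1r, Cd79a or Cd3e (14 in control, 6 in the library labelled HHcy, 8 in WD). These had 45 to 261 UMIs of Cpa3 in control, 48 to 209 in WD and 10 to 204 in the library labelled HHcy, within or near the range of the members, and they are among the other barcodes below. Their median depth was 12844 UMIs against 3876 in the members, and 26 of the 28 had at least 3 markers of B cells or of macrophages.

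Genes of other lineages were present in some members. At least 3 of 12 macrophage and monocyte markers were detected in 13 cells (6 in control, 3 in the library labelled HHcy, 4 in WD), with a maximum of 8, and at least 3 of 8 B cell markers in 4 cells. Apoe, whose level differed between the libraries, was among the 12. Detection of a marker also rises with depth, and the libraries differed in depth. Counts of cells with such markers are therefore not fully alike between libraries. No member had 3 or more markers of T cells, neutrophils or fibroblasts. At least 3 of 8 basophil markers were detected in 8 cells (2 in control, 3 in the library labelled HHcy, 3 in WD). At least 3 of 8 markers of haematopoietic progenitors were detected in 3 cells. The cell with Mcpt8 was among both, with 5 of each. Neither of these lists was used below to leave out cells. The control cell with the most UMIs, 15633, had 7 macrophage markers and held 81 UMIs of Cd74. Leaving out every cell with 3 or more markers of another lineage left 18, 14 and 5 cells, or 4 in WD when the cell with Mcpt8 was left out too. The cells left out for their markers had UMIs of all 5 genes of the rule. The macrophage list ran from 0 to 101 UMIs per 10000 in members (median 3.23), against 93.1 pooled in the other barcodes. Being left out therefore does not name a cell as one of another lineage.

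**Figure D1:**
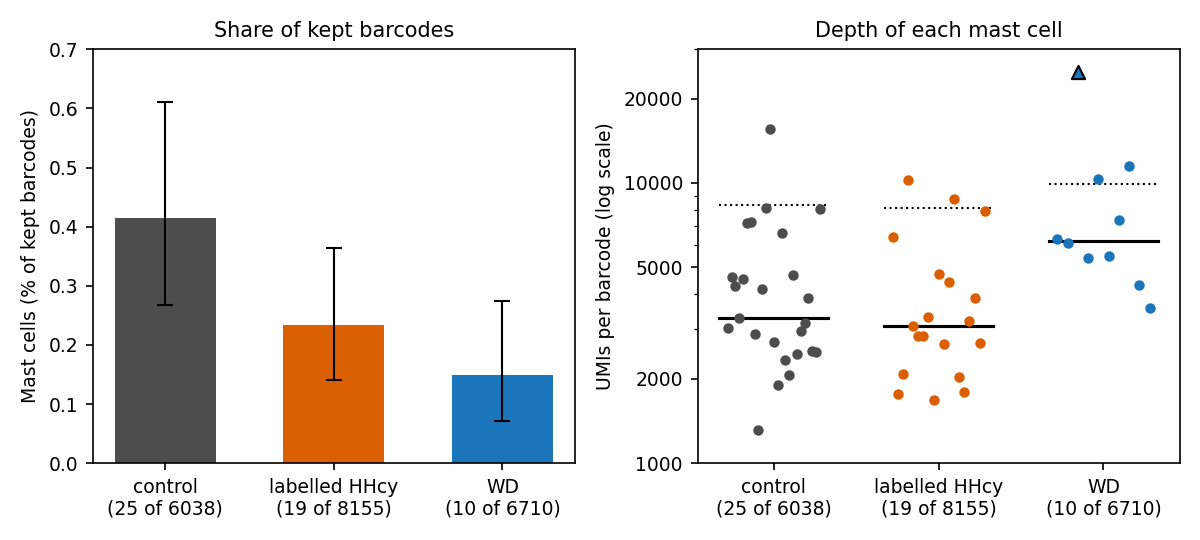
Share of kept barcodes that were mast cells (left, %, bars 95% exact binomial intervals) and UMIs per mast cell (right, log axis) in the 3 libraries. The share was 0.414% in control, 0.149% in WD and 0.233% in the library labelled HHcy; solid lines mark the median depth of the mast cells, dotted lines that of the other kept barcodes, and the triangle is the cell with Mcpt8.

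Mast cells made up 0.414% of kept barcodes in control (25 of 6038, exact Clopper-Pearson 95% interval 0.268 to 0.611%). The share was 0.233% in the library labelled HHcy (19 of 8155, interval 0.140 to 0.364%) and 0.149% in WD (10 of 6710, interval 0.0715 to 0.274%). The log2 ratio to control was −0.83 for the library labelled HHcy (95% interval −1.69 to 0.03) and −1.47 for WD (−2.53 to −0.42). The counting interval therefore included 0 in the library labelled HHcy and excluded it in WD, while the log2 ratio between WD and the library labelled HHcy, −0.64 (−1.75 to 0.46), could not be told from 0 by counting alone. The shares are shares of sorted CD45+ barcodes, so they also move with the numbers of every other leukocyte in the sort. The plot of shares and depth also shows that mast cells held fewer UMIs than other barcodes: medians were 3303, 3075 and 6199.5 UMIs in control, the library labelled HHcy and WD against 8327, 8114.5 and 9936.5 in the rest. WD mast cells were thus the deepest, which bears on every comparison of that library below.

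Granule proteases dominated the RNA of these cells. Cpa3, Mcpt4, Cma1, Tpsb2 and Tpsab1 took 13.2% of all mast cell UMIs (exact 95% interval 13.1 to 13.3%), and 0.0156%, 0.00368% and 0.00784% of those of the other barcodes of control, the library labelled HHcy and WD. Among single mast cells the share ran from 5.94 to 21.8% with a median of 11.2% in control, from 7.89 to 25.3% with a median of 15.6% in the library labelled HHcy, and from 0.252 to 28.7% with a median of 18.7% in WD. The ranges overlapped, and the lowest WD value was the cell with Mcpt8; the next lowest was 13.2%. Cma1 (46642 CPM) and Mcpt4 (45263 CPM), both chymases, were the 2 most abundant transcripts of the cells, ahead of the nuclear noncoding RNA Malat1 (27443 CPM), Cpa3 (24268 CPM) and the tryptase Tpsb2 (15346 CPM). These UMI levels are not divided by length, because the kit counts 1 end of each transcript. The 10 most abundant genes were completed by Jun (8682 CPM), Fos (6321 CPM), mt-Co1 (5795 CPM), mt-Co3 (5270 CPM) and Tpt1 (5160 CPM).

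**Figure D2:**
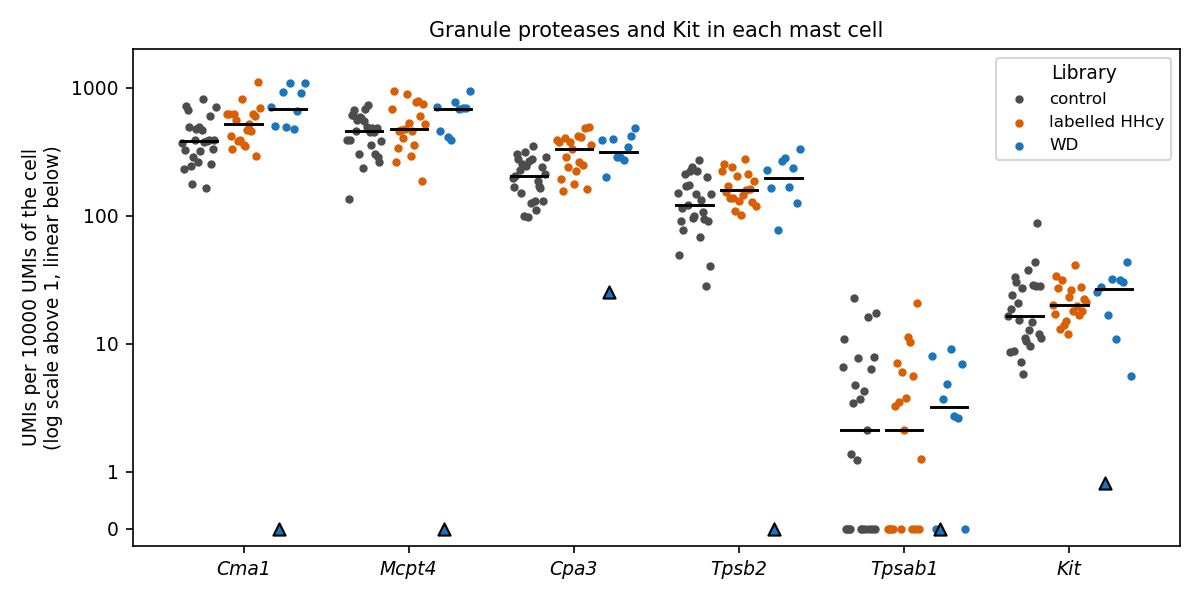
UMIs per 10000 in each mast cell for Cma1, Mcpt4, Cpa3, Tpsb2, Tpsab1 and Kit by library; lines are medians and the triangle is the cell with Mcpt8. Medians of Cma1 were 384 in control, 681 in WD and 525 in the library labelled HHcy, and the ranges of the 3 libraries overlapped for each of the 6 genes.

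The chymase Cma1 ran from 164 to 821 UMIs per 10000 with a median of 384 in control, from 292 to 1105 with a median of 525 in the library labelled HHcy, and from 0 to 1097 with a median of 681 in WD. Mcpt4, the mouse chymase closest in activity to human chymase, ran from 136 to 731 (median 463), from 186 to 938 (median 480) and from 0 to 947 (median 687) in the same order. Carboxypeptidase A3, encoded by Cpa3, ran from 98.5 to 352 (median 205), from 157 to 496 (median 334) and from 25.2 to 489 (median 315). In the plot of proteases by cell, medians were thus higher in both treated libraries than in control for all 3 genes, and the cells of the libraries overlapped for each. The tryptase Tpsb2 had medians of 121, 158 and 198, and its neighbour Tpsab1 only 2.13, 2.12 and 3.21, a median ratio of Tpsab1 to Tpsb2 of 0.0161 over the 53 cells that had Tpsb2. Kit, the receptor for stem cell factor, had medians of 16.4, 20.2 and 26.6.

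Between the 2 chymases the balance was near even: the median ratio of Cma1 to Mcpt4 within a cell was 0.893 in control, 1.16 in WD and 1.01 in the library labelled HHcy. Cells rich in one protease tended to be rich in the others. Over the 48 cells that remained after each was thinned to 2000 UMIs and the cell with Mcpt8 was left out, Spearman's rho was 0.57 for Mcpt4 with Cma1, 0.60 for Cpa3 with Mcpt4, 0.65 for Cpa3 with Cma1 and 0.41 for Tpsb2 with Mcpt4, against −0.10 for Kit with Mcpt4 and 0.36 for Fcer1a with Mcpt4. These are descriptions across cells that share libraries and a fixed total of UMIs.

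The mast cells held most, but not all, of the protease UMIs. Of all UMIs in kept barcodes, mast cells held 63.2% for Cma1, 64.1% for Mcpt4, 66.5% for Cpa3, 63.0% for Tpsb2 and 67.1% for Tpsab1. The rest includes the 28 barcodes that failed only on Csf1r, Cd79a or Cd3e. Among 6887 barcodes with at least 2 UMIs of the B cell gene Cd79a (median 6811 UMIs, against 3876 in mast cells), 1.50% had a UMI of Mcpt4, 1.48% of Cma1, 0.726% of Cpa3, 0.378% of Tpsb2 and 0.958% of Kit.

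The proteases are encoded in clusters, and only some genes of each cluster were used. The gene models of GRCm38 (GENCODE vM21) place Cma1 at chr14:55941451-55944675 and Mcpt4 at chr14:56059629-56062313 in the chymase cluster, where they had 12781 and 12403 UMIs. In the same cluster Cma2 had 11 UMIs, Ctsg 91 (53 without the cell with Mcpt8), Mcpt8 101, and Mcpt1, Mcpt2, Mcpt9 and the 7 granzymes Gzmb, Gzmc, Gzmd, Gzme, Gzmf, Gzmg and Gzmn none. The tryptase cluster on chromosome 17 showed the same unevenness, with 4205 UMIs for Tpsb2 (chr17:25366305-25369098), 123 for the membrane-anchored tryptase Tpsg1, 108 for Tpsab1 (chr17:25343245-25345562) and 186 for Prss34, of which 85 lay outside the cell with Mcpt8. Cpa3 lies on another chromosome, at chr3:20215620-20242181, and its neighbours were not examined. Tpsb2 and Tpsab1 are close copies, so the split of reads between them rests on the counting and is uncertain.

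**Figure D3:**
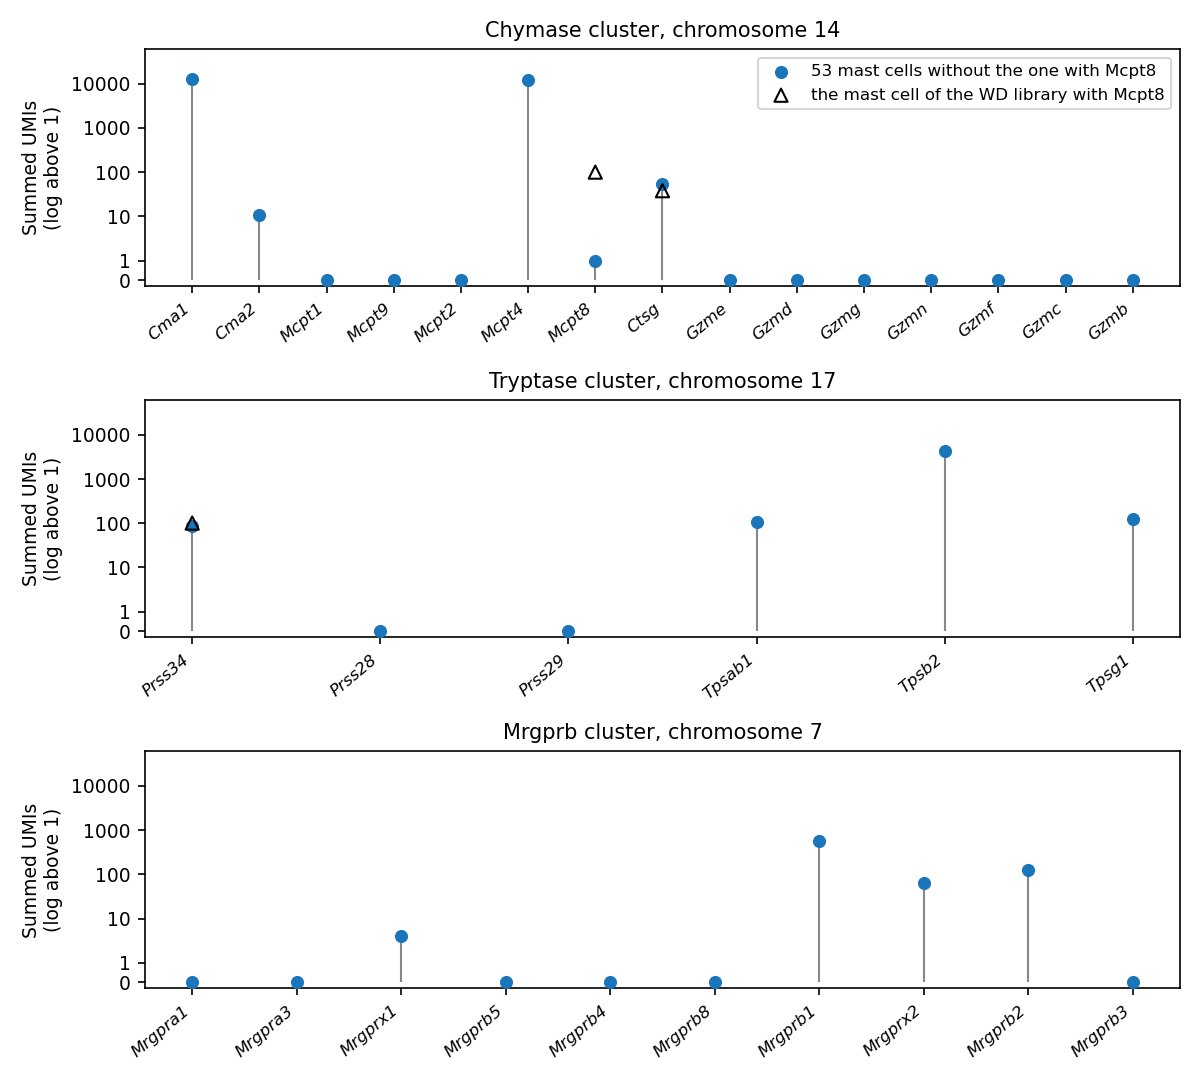
UMIs summed over the mast cells (log axis) for the genes of the chymase, tryptase and Mrgprb clusters; circles sum 53 cells and triangles show the cell with Mcpt8. Cma1 (12781 UMIs) and Mcpt4 (12403 UMIs) stand highest while Mcpt1, Mcpt2 and Mcpt9 are at 0.

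The promoters of 3 of these proteases and of Ms4a2, the β chain of the IgE receptor, are shown because the genes are expressed together in the mast cells and the factor Gata2, which binds GATA motifs, was among the transcription factor genes counted as higher there. Each is the 250 bases before the RefSeq transcription start (GRCm38.p6), all on the minus strand, read 5′ to 3′. Capitals mark matches on either strand to the letters AGATAA and to the related letters AGATAG, to the letters TGATAA, and to the related letters TGATAG.
Cpa3 (chr3:20242182-20242431): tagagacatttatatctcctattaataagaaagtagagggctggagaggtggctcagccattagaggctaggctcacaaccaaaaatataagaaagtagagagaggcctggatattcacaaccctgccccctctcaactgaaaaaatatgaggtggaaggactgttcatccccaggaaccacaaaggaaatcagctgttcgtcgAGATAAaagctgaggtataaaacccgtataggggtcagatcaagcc
Cma1 (chr14:55944676-55944925): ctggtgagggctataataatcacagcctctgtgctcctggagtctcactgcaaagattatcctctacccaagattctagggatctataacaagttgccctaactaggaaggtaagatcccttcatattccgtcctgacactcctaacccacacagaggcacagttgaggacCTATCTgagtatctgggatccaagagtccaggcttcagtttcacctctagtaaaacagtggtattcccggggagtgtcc
Mcpt4 (chr14:56062311-56062560): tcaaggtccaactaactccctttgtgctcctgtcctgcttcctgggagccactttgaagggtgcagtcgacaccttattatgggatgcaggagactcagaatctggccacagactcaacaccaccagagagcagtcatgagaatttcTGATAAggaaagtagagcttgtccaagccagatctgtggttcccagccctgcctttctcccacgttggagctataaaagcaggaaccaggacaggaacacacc
Ms4a2 (chr19:11623720-11623969): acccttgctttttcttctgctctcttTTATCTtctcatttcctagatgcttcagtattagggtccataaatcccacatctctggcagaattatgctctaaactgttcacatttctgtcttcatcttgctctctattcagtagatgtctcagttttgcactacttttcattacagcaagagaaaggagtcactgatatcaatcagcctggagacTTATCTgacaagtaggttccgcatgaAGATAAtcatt

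The match in Cpa3 has its first base 46 bases before the start, that in Cma1 79 bases and that in Mcpt4 103 bases. Ms4a2 held 3 matches, at 224, 37 and 11 bases. Of 14 mast cell genes looked up, 12 had a RefSeq entry and 9 of these held such a match, while Kit, Gata2 and Hs6st2 held none in these windows. A match of this length is common: 26.5% of all 32536 windows had one. Counted by gene, with a match in any window of the gene, the share was 29.7% of all 27025 genes with an entry. By the same count it was 44 of 113 genes higher in mast cells (38.9%), the rule genes included. Among genes with at least 30 UMIs in mast cells it was 233 of 1003 (23.2%). The E-box letters CACGTG, of the kind Mitf can bind, or the related letters CATGTG on either strand, occurred in 17.7% of all windows. Counted by gene, they occurred in 19.8% of all genes with an entry, 22.1% of those higher and 19.6% of those with at least 30 UMIs. The letters describe the windows and do not show binding.

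For the rest of the transcriptome, a gene with at least 30 UMIs in the mast cells was counted as higher when its pooled CPM was at least 4-fold that of the other kept barcodes in each of the 3 libraries, and as lower when it was at least 4-fold below. Of 1286 genes outside the rule, 143 were higher (11.1%) and 13 lower (1.01%), and the median log2 ratio over all 1286 was 0.36. With the 28 barcodes that failed only on Csf1r, Cd79a or Cd3e taken out of the others, 144 were higher and 13 lower. The rule chose the cells and these genes were counted in the same cells, so the ratios describe them and carry no test. The minimum was set on UMIs of the mast cells, so genes high there passed it more readily. This bears on the count of each list below.

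**Figure D4:**
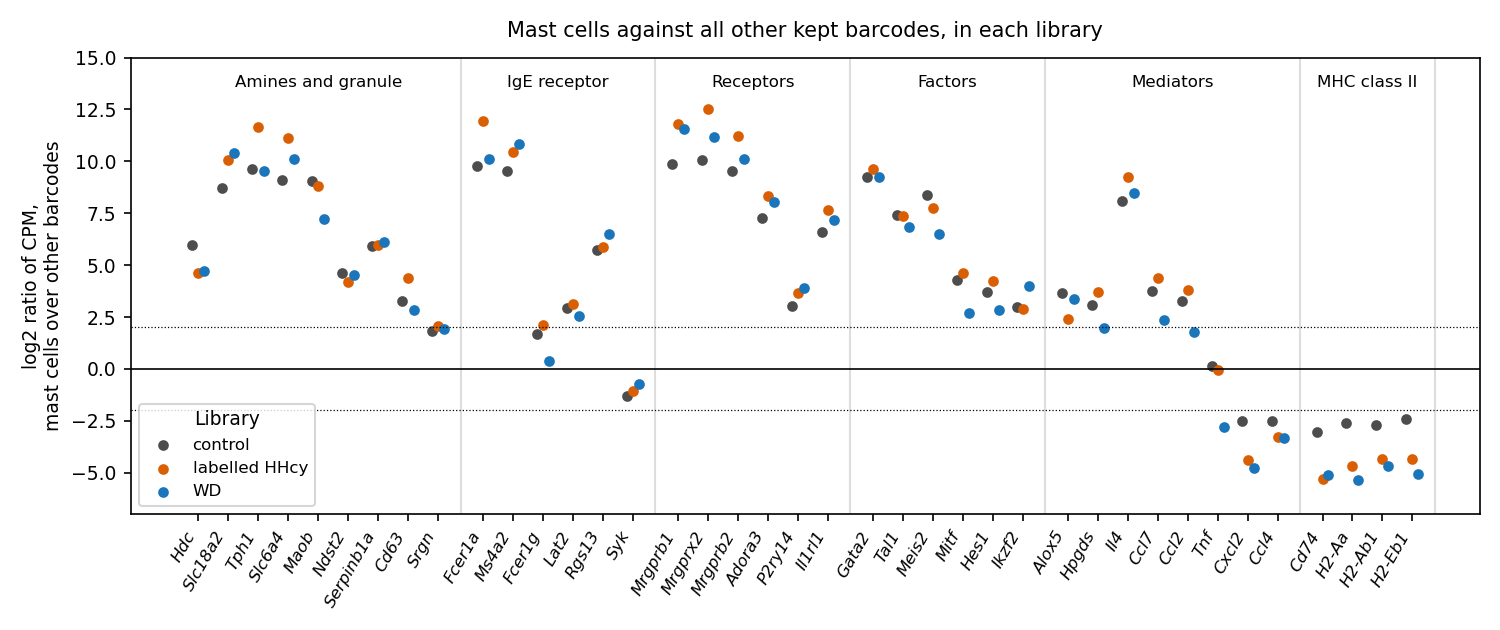
Log2 ratio of CPM in mast cells over the other kept barcodes for 39 genes, 1 point per library; dotted lines mark −2 and 2. Mrgprx2 and Mrgprb1 lie highest among the receptors (pooled log2 ratios 11.11 and 11.01), and the 4 MHC class II genes lie below −2 in each library.

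Of 16 genes of granule matrix and amine handling measured, 1 was at 0 in the mast cells and 9 had at least 30 UMIs. Of these 9, 8 were higher, with a median log2 ratio of 5.92. Hdc, the enzyme that makes histamine, was found in all 54 cells and ran from 6.31 to 80.2 UMIs per 10000 in control (median 28.6), from 4.52 to 52.6 in the library labelled HHcy (median 21.0) and from 2.79 to 58.9 in WD (median 15.8). Pooled, that was 2496 CPM against 75.1 CPM in the rest; the 468 barcodes with at least 2 UMIs of the neutrophil gene Csf3r carried Hdc as well, at 1825 CPM, while 3.72% of Cd79a barcodes had a UMI. The serotonin side of the program was as distinct: Tph1, which starts serotonin synthesis, stood at 679 CPM (log2 ratio 10.23), the serotonin transporter Slc6a4 at 806 CPM (10.08), and the vesicular monoamine transporter Slc18a2 at 894 CPM (9.74). Maob, which breaks down amines, had a log2 ratio of 8.24. Serpinb1a, an inhibitor of serine proteases, reached 3153 CPM (5.92), Ndst2, which sulfates heparin, 306 CPM (4.51), and the granule membrane protein Cd63 2095 CPM (3.37). Srgn, the serglycin core protein, was not counted, at a log2 ratio of 1.91 (5120 CPM); 97.8% of Cd79a barcodes also had a UMI of it, at 954 CPM.

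Genes of the IgE receptor were higher for the chains that are particular to it. Fcer1a, the chain that binds IgE, was detected in 53 of 54 cells at 2916 CPM against 1.997 CPM in the rest (log2 ratio 10.51), with medians of 24.2, 29.3 and 35.5 UMIs per 10000 in control, the library labelled HHcy and WD. Ms4a2 followed at 438 CPM (10.31) and was found in 42 cells. Of Cd79a barcodes, 0.0581% had a UMI of Fcer1a and 0.0436% of Ms4a2. Both genes were also present in the barcodes with Mcpt8 outside the members that are described above. Fcer1g, the γ chain shared with other Fc receptors, had a log2 ratio of 1.40. Of 15 genes of the receptor and its signalling with at least 30 UMIs, 4 were higher, the others being the adaptor Lat2 (2.90) and the regulator Rgs13 (5.97), and the median was 1.40. The kinase genes Lyn and Syk, used by many leukocytes, had log2 ratios of −0.02 and −1.02.

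Of 34 G protein-coupled receptor genes measured, 11 were at 0 in the mast cells and 6 had at least 30 UMIs. Of these 6, 5 were higher, with a median log2 ratio of 9.10. Mrgprb1 had 576 UMIs in 51 cells (2102 CPM, log2 ratio 11.01), Mrgprb2, the mouse receptor for basic secretagogues, 126 UMIs in 45 cells (10.30), and Mrgprx2 63 UMIs in 30 cells (11.11). They lie together on chromosome 7, Mrgprb1 at chr7:48444113-48456342, Mrgprx2 at chr7:48478619-48499321 and Mrgprb2 at chr7:48550965-48558086, and the plot of clusters shows Mrgprx1 with 4 UMIs and the other genes of the cluster at 0. The adenosine receptor Adora3 (7.89) and the UDP-sugar receptor P2ry14 (3.53) were the others counted. Mrgprb1 ran from 0 to 40.8 UMIs per 10000 in control (median 18.9), from 11.9 to 54.0 in the library labelled HHcy (median 24.5) and from 0 to 37.5 in WD (median 24.8), so the libraries overlapped.

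Among growth and cytokine receptors other than Kit, 1 of 8 was higher (median 0.79), Il1rl1, which binds interleukin 33, at 1952 CPM in 53 cells (log2 ratio 7.16). Kit itself, a gene of the rule, had a log2 ratio of 7.94. Their ligand genes Kitl, which encodes stem cell factor, and Il33 were both at 0 in the mast cells, where a count of 0 allows 10.9 CPM. Of 227 barcodes with at least 2 UMIs of the fibroblast gene Col1a1 (median 7026 UMIs), 13.2% had a UMI of Kitl and 35.7% of Il33, against 0.508% and 0.276% of Cd79a barcodes. Among inhibitory and paired receptors 1 of 9 was higher, Cd200r3 (8.97), and among adhesion genes 2 of 8, the integrin chains Itga2b (5.40) and Itga9 (3.40).

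Of 14 transcription factor genes with at least 30 UMIs, 6 were higher, with a median of 1.21. Gata2 stood at 799 CPM against 1.20 CPM (log2 ratio 9.38) and was found in 45 cells, with medians of 7.17, 4.82 and 8.27 UMIs per 10000 in control, the library labelled HHcy and WD. Meis2 (7.41), Tal1 (7.20), Mitf (3.90), Hes1 (3.74) and Ikzf2 (3.31) were the others. Tal1 acts with Gata2 in haematopoietic cells, and Hes1 is a target of Notch. Gata2 was also present in the barcodes with Mcpt8 outside the members. Of 6 exocytosis genes, 3 were higher: Rab27b, which docks granules (8.09), Rab44 (4.88) and the membrane fusion protein Stx3 (3.88), with a median of 2.41.

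Lipid mediator and cytokine genes were more mixed. Alox5, which starts leukotriene synthesis, was higher (3.25), and Hpgds, the haematopoietic prostaglandin D synthase, had a pooled log2 ratio of 2.85 without reaching the threshold in each library. Of 7 cytokine genes, 2 were higher and 2 lower, with a median of 0.40. Il4 stood at 372 CPM against 0.930 CPM (8.64) and was found in 34 cells, while Il13, with 11 UMIs in 8 cells, was below the minimum. The chemokine Ccl7 was higher (3.33) and Ccl2 had a ratio of 2.84, whereas Cxcl2 (−3.50) and Ccl4 (−2.95), chemokines of macrophages and neutrophils, were lower. Tnf differed little (−0.49).

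The class II genes of antigen presentation were lower: 4 of 7 genes of that list with at least 30 UMIs, with Cd74, the invariant chain, at 602 CPM against 9115 CPM (log2 ratio −3.92), H2-Aa at −3.56, H2-Ab1 at −3.49 and H2-Eb1 at −3.36. The control cell with 7 macrophage markers held 49.1% of the Cd74 UMIs of all mast cells. Of 31 immediate early and dissociation genes, which tissue digestion is known to induce, Jun was higher (2.68) and Atf3 lower (−2.77), with a median of 0.84; Fos, at 6321 CPM, had a pooled ratio of 2.04. Ifitm3 was the 1 of 4 interferon-stimulated genes that was lower (−3.47).

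Outside these lists, 67 genes met a stricter rule (at least 50 UMIs, a UMI in at least 25% of cells, higher in each library), and the 20 with the largest ratios fell into several functions. Enzymes of sulfated sugars were 1 set: Hs6st2, which sulfates heparan chains, led with a log2 ratio of 10.45 (165 UMIs in 43 cells, at 602 CPM against 0.429 CPM), followed by the sulfotransferase Chst1 (7.45), Papss2, which makes the sulfate donor (5.47), and the nucleotide sugar transporter Slc35d1 (4.57). Cyp11a1, the enzyme of the first step from cholesterol to steroids, had 71 UMIs in 28 cells (9.27). Membrane proteins included the lipid flippase Atp8b5 (9.97), Slc45a3 (9.26), the potassium channel subunit Kcne3 (7.37), the receptor Gpr141b (6.53) and the adhesion molecule Ncam1 (6.51). The Gi subunit Gnai1 (8.62), the membrane-bound transcription factor Creb3l1 (6.44), the coactivator Cited4 (6.31) and Sytl3, a synaptotagmin-like protein (5.94), were followed by Gask1b (5.71), the arginine deiminase Padi2 (5.32), Gcsam (5.26), cystatin F, encoded by Cst7 (5.19), Pakap (4.79) and the secreted bridging protein Mfge8 (4.56).

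The spread among single mast cells was described by the ratio of variance to mean. After each of 49 cells was thinned to 2000 UMIs (23 in control, 16 in the library labelled HHcy, 10 in WD, the cell with Mcpt8 included; 2, 3 and 0 shallower cells left out), the ratio over 538 genes had a median of 1.28. It was highest for Malat1 (32.7), Ccl7 (29.96), Cma1 (23.4), Gm42418 (16.9), the chaperone cofactor Dnajb1 (16.2), Mcpt4 (14.6), the heat shock gene Hspa1a (12.5), Cpa3 (10.5), Fos (10.4) and Egr1 (9.77). Cma1, Mcpt4 and Cpa3 are genes of the rule and among the most abundant, and the ratio tends to grow with the mean. Ccl7 was the most uneven of the chemokines, from 0 to 76 UMIs in a thinned cell with a median of 3, and 32 of the 49 cells had it. Hspa1a was found in 8 of the 49. Fos and Jun moved together over 48 thinned cells, with a Spearman's rho of 0.57.

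The mast cells of the library labelled HHcy were then set against those of control. A gene with at least 30 UMIs in the cells of both together was counted when the pooled CPM differed by at least 2-fold and the 95% counting interval excluded equality. The WD comparison uses the same control cells, so the 2 comparisons are not independent. In the library labelled HHcy, 17 of 897 genes were higher (1.9%) and 40 lower (4.46%), or 6.35% in either direction, and the median log2 ratio of all 897 was −0.06. The values of single cells overlapped between the libraries for every gene counted. For 7 of the 17 and 29 of the 40, more than 25% of the UMIs of the higher library came from 1 cell. When cells with 3 or more markers of another lineage were left out, 30 of 562 genes were counted, 15 in each direction, of which 17 had been counted before.

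Main genes of the mast cell program stayed under the 2-fold threshold between these libraries. The log2 ratio to control was 0.55 for Cpa3 (0.47 to 0.63), 0.35 for Cma1 (0.28 to 0.41) and 0.29 for Tpsb2 (0.18 to 0.40). It was 0.14 for Mcpt4 (0.08 to 0.20) and 0.16 for Kit (−0.13 to 0.44). The counting intervals of the proteases thus excluded 0, though none was counted. These are genes of the rule, so their values are a description. None of 9 amine and granule matrix genes (median 0.08), 13 IgE receptor genes (median 0.13) or 5 G protein-coupled receptors (median 0.32) was counted; Hdc stood at −0.38, Fcer1a at 0.56, Mrgprb1 at 0.45 and Il1rl1 at 0.38. In the protease list 3 of 12 genes were lower, but these were the cathepsins Ctsb and Ctss, with 79.1% and 94.3% of the control UMIs in 1 cell, and Prss34. Prss34 had 67 UMIs in 8 control cells against 1 UMI in the library labelled HHcy, and 65.7% of the 67 lay in 1 cell. Of 11 transcription factors 1 was lower, Cebpb (−1.50, with 51.7% of its control UMIs in 1 cell), and the median was −0.31.

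The 10 genes with the largest increases and at most 25% of the UMIs of the higher library in 1 cell were Igkc, Paip2, Rbm25, Sumo2, Tubb2a, Ubb, Fam129b, Gcsam, Lxn and Hsd17b11. Ubb, a ubiquitin gene, had the most UMIs of these: it ran from 4.82 to 133 UMIs per 10000 in the library labelled HHcy (median 46.7) and from 0 to 40.2 in control (median 17.2), a log2 ratio of 1.22 (0.97 to 1.47). The ranges overlapped, and the median of the treated cells lay above the highest control cell. Igkc, the immunoglobulin κ constant gene, rose by a log2 ratio of 2.14 (1.12 to 3.27) in the mast cells and by 1.97 in the other barcodes of the same libraries. The others ranged from 1.56 for Paip2, a regulator of translation, to 1.04 for Hsd17b11. Apoe was also higher, with 53 UMIs against 7 (log2 ratio 3.48, 2.33 to 4.86), while the other barcodes differed by 4.55. It did not meet the limit, with 37.7% of the 53 UMIs in 1 cell, and was found in 7 of 19 cells against 5 of 25.

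Among genes lower in the library labelled HHcy under the same limit on 1 cell, Gm26532 had 8 UMIs against 45 (log2 ratio −1.94, −3.23 to −0.84). Ddit3, a stress-induced transcription factor, had 6 against 30 (−1.77, −3.32 to −0.48). It was found in 5 of 19 cells against 13 of 25, from 0 to 5.96 UMIs per 10000 (median 0) against 0 to 15.8 (median 1.24), and the ranges overlapped. The other named genes were Lgals9 (−1.50), Atp5md (−1.41), Cyfip2 (−1.28), Dock2 (−1.20), Tiparp (−1.11), Spcs1 (−1.07) and Snrpg (−1.06). Without cells with 3 or more markers of another lineage, 4 of the 10 higher and 5 of the 10 lower genes that met the limit were still counted.

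Of 30 immediate early genes, 2 were higher in the library labelled HHcy (Klf2, 1.15, and Egr3, 1.31) and 3 lower (Gadd45b, −1.23, Hspa1a, −3.59, and Hspa1b, −3.75), with a median of −0.20. Of their UMIs in the library labelled HHcy, 45.3% of Klf2 and 40.9% of Egr3 lay in 1 cell. Klf2 stood at 0.56 and was not counted without cells with 3 or more markers of another lineage. The heat shock genes had 4 UMIs each against 71 and 79, of which 70.4% and 63.3% lay in 1 control cell. The summed level of the list ran from 189 to 1026 UMIs per 10000 in the library labelled HHcy (median 561) and from 105 to 1231 in control (median 546). Class II genes gave 4 lower of 7 (median −1.64), with Cd74 at −2.16, and 64.8% of the control Cd74 UMIs came from the control cell with 7 macrophage markers. Without the cells with 3 or more markers of another lineage, Cd74 changed sign to 0.76 and H2-Aa to 1.09. Both were below the minimum of 30 UMIs in the cells left, so neither could be counted and their signs rest on few UMIs.

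In WD, 44 of 920 genes were higher than in control (4.78%) and 82 lower (8.91%), or 13.7% in either direction, with a median log2 ratio of −0.13. A scaling by the median of gene ratios moved that median to 0.00, so log2 ratios of WD read about 0.13 higher relative to the middle gene. Values of single cells overlapped for every gene counted, and for 40 of the 44 and 38 of the 82 more than 25% of the higher library's UMIs came from 1 cell. The cell with Mcpt8 held much of the signal on the higher side: without it, 97 of 804 genes were counted, 17 higher and 80 lower, of which 55 had been counted with it. Of the 10 WD cells, 5 had 3 or more markers of another lineage; with these and the cell with Mcpt8 left out, 4 WD cells were set against 18 control cells and 45 of 411 genes were counted, 13 higher and 32 lower, with 13 shared with the first count. WD cells were also deeper, and after thinning to 2000 UMIs 24 of 286 genes were counted, 4 higher and 20 lower.

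The levels of the main granule proteases in WD moved with the cell with Mcpt8, and none of the genes Cma1, Cpa3, Tpsb2, Mcpt4 and Kit was counted with or without it. With it, the log2 ratio to control was 0.28 for Cma1, 0.23 for Cpa3, 0.09 for Tpsb2, −0.02 for Mcpt4 and −0.18 for Kit. Without it these were 0.78, 0.69, 0.59, 0.48 and 0.31. All 5 ratios were thus positive without that cell and below the 2-fold threshold. The basophil protease Mcpt8 itself had 100 UMIs in that cell and none in the control cells, and Prss34 stood at 1.21 with the cell and −1.08 without it. Ctsg, the cathepsin G gene, stood at 1.33 with 86.4% of its WD UMIs in that cell, and was below the minimum of 30 UMIs without it.

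The other mast cell lists held few counted genes in WD. None of 9 amine genes was counted (median 0.21), nor any of 5 G protein-coupled receptors (median −0.19), and Hdc stood at −0.78 (−0.39 without the cell with Mcpt8), Fcer1a at 0.35 (0.71) and Mrgprb1 at 0.05 (0.55). The serotonin transporter Slc6a4 passed only without that cell (0.53 with it, 1.03 without). Of 12 IgE receptor genes 1 was lower, Lyn (−1.23), and of 13 transcription factors 3 were lower, Runx3 (−1.46), Id2 (−1.20) and Hes1 (−1.18), and 1 higher, Lmo4, with 88.4% of its UMIs in 1 cell. None of these 5 was counted once the cell with Mcpt8 was left out, with Lyn at −1.02 (−2.27 to 0.07), Runx3 at −1.15 (−2.59 to 0.07), Hes1 at −0.68 and Id2 at −0.70. In the 4 WD cells left without those with 3 or more markers of another lineage as well, Hes1 was counted lower again (14 UMIs against 103, −1.18, −2.10 to −0.37). Tnf, the cytokine, had 7 UMIs against 54 (log2 ratio −2.55, −3.93 to −1.41) and −2.27 without that cell; it was found in 7 of 10 cells against 16 of 25, and 38.9% of the control UMIs lay in 1 cell. In the 4 WD cells left without those with 3 or more markers of another lineage it had 3 UMIs against 27 (−1.47, −3.83 to 0.23) and was not counted.

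Genes lower in WD that were spread over the control cells came from several functions. Cadm1, an adhesion molecule of mast cells, had 5 UMIs in 4 of 10 cells against 39 UMIs in 20 of 25 cells, from 0 to 1.94 UMIs per 10000 (median 0) against 0 to 9.06 (median 4.30). The log2 ratio was −2.57 (−4.27 to −1.22), and −2.07 without the cell with Mcpt8. Ext1, which builds heparan sulfate chains, had 8 UMIs against 50 (−2.25, −3.54 to −1.16), and Sqstm1, the autophagy receptor p62, 23 against 127 (−2.07, −2.78 to −1.42). Ccnt1, a cyclin of transcription elongation, stood at 3 against 29 UMIs (log2 ratio −2.88, −5.24 to −1.19). The other named genes were Ptpn2 (−2.04), Smdt1 (−1.80), Fosl2 (−1.80), Stk17b (−1.79), Tgoln1 (−1.77) and Gm26532 (−1.64), the last of which was also lower in the library labelled HHcy.

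On the higher side, with the cell with Mcpt8 included, only 4 genes had at most 25% of their UMIs in 1 cell. Gm42418, a transcript that overlaps ribosomal RNA, ran from 1.85 to 237 UMIs per 10000 in WD (median 73.8) and from 0 to 155 in control (median 18.9), a log2 ratio of 1.60 (1.41 to 1.80). H2-T23, a nonclassical class I gene, stood at 1.43 (0.65 to 2.26), Tmem59 at 1.34 (0.32 to 2.43) and Pdcd4 at 1.09 (0.02 to 2.21). Ranges overlapped for all 4. Without the cell with Mcpt8 these stood at 1.82 for Gm42418, 1.86 for H2-T23 and 1.72 for Tmem59, and Pdcd4 was not counted. Gm42418 then had 29.9% and Tmem59 26.1% of their WD UMIs in 1 cell, over the limit of 25%. Other genes not named here met the limit in that setting. Of the 10 lower genes all were still counted without the cell with Mcpt8. Only 2 of them and 1 of the 4 higher ones were counted in the 4 WD cells left without those with 3 or more markers of another lineage as well.

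**Figure D5:**
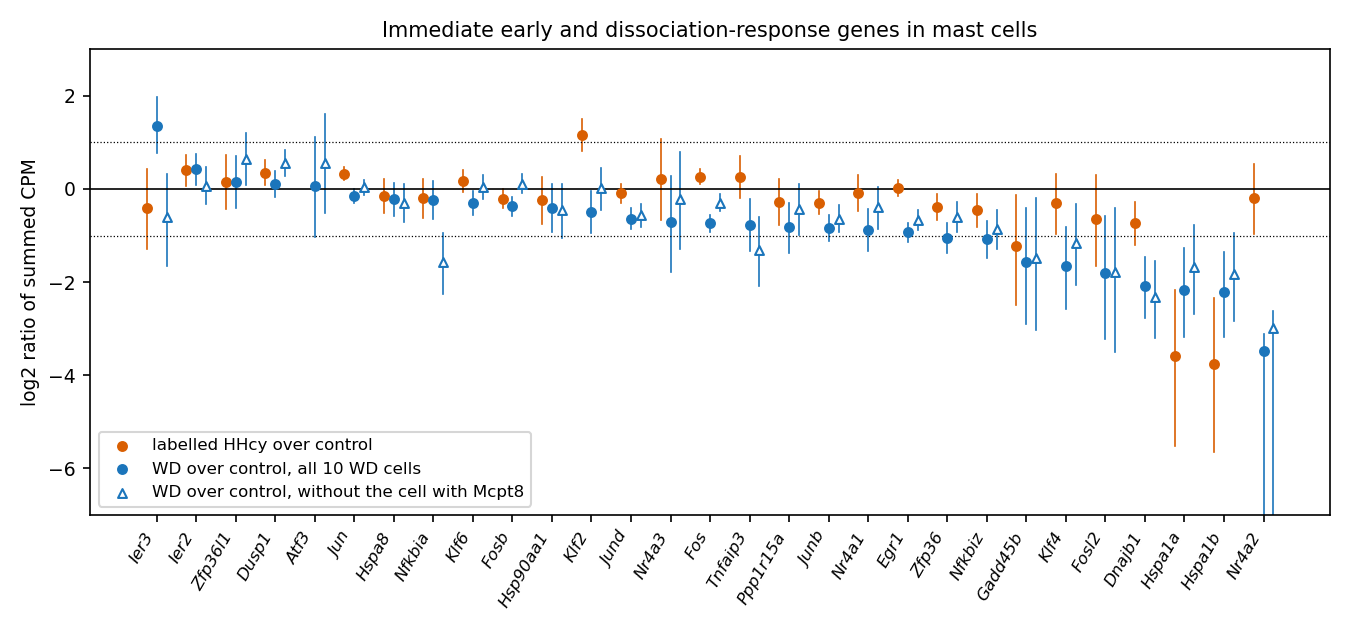
Log2 ratio of CPM to control for the 29 immediate early and dissociation genes tested in WD, in mast cells of the library labelled HHcy, of WD, and of WD without the cell with Mcpt8; bars are 95% counting intervals, limited at −7, and dotted lines mark −1 and 1. In WD 9 of 29 genes lay lower and 1 higher by the rule used here.

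Several immediate early genes were counted in WD. Of 29, 9 were lower and 1 higher, with a median of −0.74 against −0.13 over all 920 genes tested and 13.7% of those counted in either direction. The lower genes were Nr4a2, Fosl2, Klf4, Zfp36, Nfkbiz, Gadd45b, Dnajb1, Hspa1a and Hspa1b. For several, much of the control count lay in 1 control cell: 70.4% for Hspa1a, 63.3% for Hspa1b, 61.3% for Gadd45b and 49.3% for Dnajb1. That part was 38.7% for Klf4 and 29.5% for Nr4a2, against 18.8% for Fosl2, 18.1% for Zfp36 and 15.9% for Nfkbiz. Without the cell with Mcpt8 there were again 9 lower, 7 of them the same, with a median of −0.57; Ier3, the 1 higher gene, had 81.9% of its WD UMIs in 1 cell and stood at −0.61 without the cell with Mcpt8. Nr4a2, an orphan nuclear receptor gene, was at 0 in all 10 WD cells and had 44 UMIs in 8 of 25 control cells, which is at least 11.1-fold lower when 3 UMIs are allowed for the WD cells together. With the same allowance the log2 bound was −2.98 without the cell with Mcpt8 and −1.84 in the 4 WD cells left without those of another lineage. The RNA-destabilising protein gene Zfp36 was found in 10 of 10 WD cells and 23 of 25 control cells (log2 ratio −1.05, −1.38 to −0.73), and −0.60 without the cell with Mcpt8. The most abundant members of the list differed less, Fos by −0.74, Egr1 by −0.93 and Jun by −0.14, or −0.29, −0.66 and 0.04 without the cell with Mcpt8. Per cell, the summed list ran from 197 to 1219 UMIs per 10000 in WD (median 326) and from 105 to 1231 in control (median 546), so the ranges overlapped almost fully.

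These counts changed with the choice of cells. With the cell with Mcpt8 and those with 3 or more markers of another lineage left out, 5 of 24 were lower and 2 higher (median −0.28), Egr1 being counted lower (−1.43) while Fos stood at 0.18 and Jun at 0.49. In thinned cells 4 of 23 were lower and none higher. In the other barcodes of the same libraries the summed list stood at 277 UMIs per 10000 in control, 299 in WD and 224 in the library labelled HHcy. Class II genes were again 4 lower of 7 in WD (median −1.93, Cd74 at −2.18), and Cd74 changed sign to 1.41 in the same 4 WD cells against 18 control cells. There Cd74 was below the minimum of 30 UMIs and could not be counted.

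The diet and the supplement bear on the methionine cycle and on lipids, and few of those genes could be read in 54 cells. Of 18 methionine and homocysteine cycle genes only Mat2a, which makes S-adenosylmethionine, had at least 30 UMIs. It stood at 339 CPM against 158 CPM in the other barcodes and differed from control by a log2 ratio of 0.27 in the library labelled HHcy and −0.43 in WD, neither counted; without the cell with Mcpt8 it was counted lower in WD (10 UMIs against 39, −1.07, −2.24 to −0.04). Ahcy, Cbs, Cth, Bhmt and Gnmt, which handle homocysteine, were at 0 in all mast cells. For Ahcy the other barcodes held 4.25 CPM, under the 10.9 CPM that a count of 0 allows, so a difference was not detectable at this depth. Of 30 cholesterol and lipid genes 4 had at least 30 UMIs, among them Soat1, which esterifies cholesterol, at 190 CPM, while the fatty acid binding protein gene Fabp5 had 43 UMIs in 1 control cell.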

How the data were processed

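Droplet single-cell RNA-seq of aortic CD45+ cells was analysed in 3 libraries, 1 per group. The deposited matrices hold raw UMI counts for 32285 genes per barcode, and the authors made them with Cell Ranger, version 4.0.0 per the file headers and 2.2.0 per the submitters' processing notes, which name mm10; no other step is given in the sources used here. Barcodes with at least 200 genes and at most 10% mitochondrial UMIs were kept. No doublet caller was run; cells with at least 3 markers of another lineage were left out as an alternative. The members and gene lists were chosen with earlier results of these data known. Levels are pooled UMIs per 1000000 UMIs (CPM) or UMIs per 10000 in a cell; shares carry exact Clopper-Pearson 95% intervals and ratios between libraries conditional binomial ones, both for counting error only. A gene with a count of 0 was set to 3 counts per group. Thinning drew 2000 UMIs per cell without replacement. Genes were counted past a log2 ratio of 2 in each library (mast cells against other barcodes) or 1 with the interval excluding 0 (between libraries), at 30 UMIs or more. Named genes were those of the rule and the lists, the 20 largest ratios outside the lists, up to 10 per direction between libraries with at most 25% of the higher library's UMIs in 1 cell, and the 10 most abundant and most variable; of lists, the genes counted and main members are given by value and the rest by count; 1 gene that the rule names is not reported here. The cell with Mcpt8, and barcodes that failed only on Csf1r, Cd79a or Cd3e, were left out in alternatives chosen after seeing the data. Scripts were tested on simulated data and used Python 3.11.15, numpy 2.4.6, scipy 1.17.1, pandas 2.3.3 and matplotlib 3.10.9.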

Additional observations from a re-analysis of the deposited data

How the results depend on the processing

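The shares of mast cells kept their direction under each alternative tried, with log2 ratios to control from −2.0002 to −1.27 in WD and from −1.15 to −0.75 in the library labelled HHcy. The numbers of genes counted moved more. For the library labelled HHcy they were 57 as reported, 30 without cells with 3 or more markers of another lineage (also 30 with the cell with Mcpt8 left out too), 136 at a minimum of 15 UMIs, 9 at 100 UMIs, 22 in thinned cells and 25 without the cell with the most UMIs of each gene. For WD they were 126 as reported, 216 at 15 UMIs, 39 at 100 UMIs, 24 in thinned cells, 79 without the cell with the most UMIs of each gene and 45 without the cell with Mcpt8 and those with 3 or more markers. Genes higher in mast cells than in other barcodes were 143 as reported, 87 without cells with 3 or more markers, 40 at 100 UMIs and 89 at a log2 threshold of 3. Fewer genes or cells were tested in several of these. Without cells with 3 or more markers, Ccl4 (0.65), Cd74 (0.76) and H2-Aa (1.09) changed sign in the library labelled HHcy, and Cd74 (1.03) and H2-Aa (0.26) in WD. With the cell with Mcpt8 also left out, WD gave Cd74 1.41, H2-Aa 0.96 and Prss34 −0.12. In these settings Ccl4, Cd74 and H2-Aa were below the minimum of 30 UMIs, so their signs rest on few UMIs. Without the cell with Mcpt8 alone Prss34 was −1.08. The cause was not tested. Of 770 recomputed single-gene values over 77 results, 658 stayed within the spread used, 100 moved and 12 changed sign. At these depths a gene absent from the mast cells of a library could be present at up to 26.7, 39.3 or 35.2 CPM in control, the library labelled HHcy and WD. No paired analysis was possible because each group has 1 library.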

Other observations

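Ribosomal protein genes, a group chosen after its values were seen, took a smaller part of the RNA in mast cells than in other barcodes. Over 84 genes the share of UMIs per mast cell ran from 4.85 to 19.996% in control (median 11.5%), from 4.93 to 15.96% in the library labelled HHcy (median 9.18%) and from 4.99 to 33.5% in WD (median 7.01%), against medians of 20.5, 26.1 and 17.1% in the other barcodes. The WD maximum was the cell with Mcpt8, without which the highest was 13.02% and the median 6.70%. Of 80 such genes compared with control, none was higher and 2 were lower in the library labelled HHcy (median log2 ratio −0.36, 73 below 0), while the other barcodes had a median of 0.12. In WD 12 were higher and none lower with the cell with Mcpt8 (median 0.44), and none higher and 12 lower without it (median −0.58, 78 below 0), while the other barcodes had a median of −0.21.

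Ptprc, which encodes the CD45 antigen used for the sort, was also lower in mast cells. It had 79 UMIs in 39 of 54 cells (72.2%), or 288 CPM, against 683 CPM and 93.9% of the other barcodes, whose median depth was higher. The levels were 294 CPM in control, 314 CPM in the library labelled HHcy and 258 CPM in WD, against 745, 687 and 634 CPM in the other barcodes of the same libraries.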
